A study of Mus musculus with 16 samples.

Results

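A set of 127 olfactory receptor genes of mouse chromosome 9 was followed through 16 arrays of sorted olfactory mucosa cells. They were chosen as the array features assigned to chromosome 9 by their identifiers and named Olfr followed only by a number, leaving out Olfr151, Olfr160 and Olfr961. They made up 127 of 1080 such receptor features and of 19572 named features on the array. All 127 were found in the RefSeq gene table of GRCm38.p6, where they fell into 2 clusters more than 1 Mb apart, 35 genes from Olfr24 to Olfr18 and 92 genes from Olfr874 to Olfr986. That table also gives each a receptor family under the older MOR names, 29 families in all, of which 9 held 1 member.

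Olfactory receptors are G protein-coupled receptors on the cilia of olfactory sensory neurons, where odorants bind them and start the cAMP signal of olfaction. A mature neuron transcribes a single receptor gene, and usually one allele of it. In a pool of neurons, a receptor's messenger RNA therefore reflects both how many neurons chose that gene and how much RNA each holds, which cannot be told apart in bulk RNA. Receptor genes lie in genomic clusters of related copies, and the chromosome 9 clusters are among the large ones of the mouse.

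The mice were C57BL/6 animals of both sexes, 7 to 12 weeks old, and all carried S100a5-tauGFP, a reporter whose green fluorescence follows a gene that olfactory sensory neurons raise when active. Over 40 h in clean air chambers, one set of mice received pulses of filtered air (vehicle) and the other pulses of a mixture of undecanal and bourgeonal, a pair of aldehyde odorants, for 10 s every 20 min from 26 h on. Cells of 3 mice were pooled and sorted by fluorescence, giving 4 pools per treatment with both fractions of each, hence 4 arrays in each of 4 groups. In this assay a receptor whose neurons respond to an odorant is looked for as one that shifts towards the fluorescent fraction in odor relative to vehicle pools.

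The titles and the cell type entries of the samples give opposite GFP states on all 16 arrays. The titles were followed here as "titled GFP−" and "titled GFP+", and every fraction difference is titled GFP− minus titled GFP+ in log2 units. S100a5, the gene behind the reporter, was higher in the fraction titled GFP−, by 1.00 ± 0.20 (SE) in vehicle and 1.31 ± 0.20 in odor pools (limma, adjusted p = 0.00186 and 1.55e-04), which goes against the titles. By the cell type entries, each difference would be fluorescent minus non-fluorescent cells. Mature neuron markers other than Cngb1 were high everywhere (the mean of Omp, the olfactory marker protein, was 18.43 to 18.60 in the 4 groups). Cngb1 had group means of 5.62 to 6.44 and never exceeded the negative control level defined below. Replicate arrays correlated at 0.979 to 0.995 over all named features.

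The deposited values are log2 array signals. The 95th percentile of 5222 negative control entries, taken on each array as the level below which a signal is only a bound, lay between 9.14 and 10.88. By that measure 77 of the 127 receptors exceeded background on at least 1 array and 5 did on all 16. The level was high: by the median of 23 background probe sets graded by GC content (5.09 to 5.90) 122 exceeded it on at least 1 array and 71 on all 16, and only Olfr832, Olfr866, Olfr891, Olfr926 and Olfr936 never did. Where the dimmer group lay below the negative control level on every array, a fold is given as "at least", from the brighter group to that level, and no fold is given where that bound was under 1 or both groups lay below it.

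In the vehicle pools, 71 of the 127 chromosome 9 receptors differed between the sorted fractions (limma, Benjamini-Hochberg adjustment over all 19572 features, threshold 0.05). Of these, 48 had the higher signal in titled GFP− cells and 23 in titled GFP+ cells. Among all features 16.9% passed, 7.05% higher and 9.82% lower. The 953 other receptors passed at 53.6%, close to the 55.9% of the chromosome 9 receptors. The median difference was 0.68 over the 127 members, 0.42 over other receptors and 0.13 over all features. The single differences spread far wider than these medians, from −6.09 for Olfr77 to 4.70 for Olfr981, with the middle 50% between −0.59 and 1.76.

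The odor pools, made from other mice, gave a like picture. Both comparisons come from the same fit and share its estimate of spread, so their calls are not fully independent. With odor 76 receptors passed, of which titled GFP− cells held 55 at higher and 21 at lower signal. That is 59.8%, against 22.2% of all features (12.2% higher, 9.98% lower) and 56% of other receptors. The median difference was 0.92, against 0.53 for other receptors and 0.14 for all features. In all, 68 receptors passed in both sets of pools, 48 higher and 20 lower, and 0 passed in opposite directions. Thus 95.8% of the vehicle calls were called again with odor and 89.5% of the odor calls with vehicle. The matching shares of other receptors and of all features are not given here, so these rates cannot be read as particular to chromosome 9. Of those 68, 66 had the same direction in all 8 pools. The 68 were picked by passing on these same arrays, which largely sets that agreement.

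**Figure D1:**
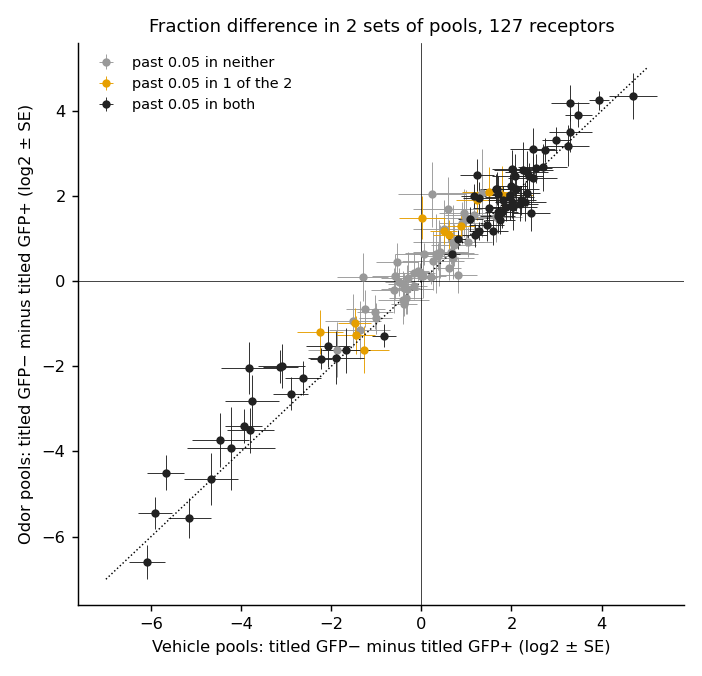
Fraction difference of each of the 127 receptors in vehicle pools (x axis) and odor pools (y axis), in log2 units with limma standard errors as bars. Points lie along the dotted line of equality from −6.09 for Olfr77 to 4.70 for Olfr981, and black points are the 68 receptors past the threshold in both.

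Across the 127 receptors the paired differences correlated at 0.977, and at 0.98 across the 953 other receptors. These are correlations over genes that share libraries, given as a description. The sign was shared by 119 receptors, and the 8 with opposite signs passed in neither set. By pool, 56 receptors favoured titled GFP− cells in all 8 pools, 24 were lower in all 8, and 47 were mixed. The matching counts over all features are not given here. The arrays of the fractions did not overlap for 73 receptors in vehicle and 68 in odor pools, against 23.4% and 24.5% of all features.

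Receptors highest in the titled GFP+ fraction held the widest separations. Olfr77, a MOR143 receptor with the most negative fitted difference, read 6.90, 5.24, 5.98 and 7.00 on the vehicle arrays titled GFP− and 12.69, 12.25, 12.10 and 12.41 on those titled GFP+. With odor it read 6.60, 5.49, 4.47 and 6.13 against 12.09, 12.27, 12.16 and 12.54. The titled GFP+ arrays lay close together and far above the titled GFP− arrays, which were all below the negative control level. The fitted differences were −6.09 ± 0.40 (SE, adjusted p = 1.77e-08) and −6.59 ± 0.40 (adjusted p = 7.4e-09), at least 6.78-fold and 5.30-fold higher in titled GFP+ cells.

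Olfr878, the 1 member of family MOR163, came next with vehicle. Its vehicle values were 7.70, 5.88, 5.94 and 6.79 in titled GFP− and 13.01, 12.03, 12.30 and 12.59 in titled GFP+ arrays, and with odor 7.41, 6.43, 6.79 and 7.22 against 11.68, 12.25, 12.81 and 12.89. The groups were again far apart in both treatments. The differences were −5.91 ± 0.38 and −5.45 ± 0.38 (adjusted p = 1.16e-08 and 3e-08), at least 7.35-fold and 5.86-fold higher in titled GFP+ cells.

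Olfr972 of MOR171 varied more in the fraction where it was high. Its titled GFP− arrays read 7.31, 7.48, 7.40 and 7.22 with vehicle and 6.40, 7.35, 6.94 and 8.04 with odor. Its titled GFP+ arrays read 11.65, 11.24, 11.71 and 13.48 with vehicle and 10.24, 12.52, 10.94 and 13.63 with odor, replicate 4 being the highest in both. The differences of −4.66 ± 0.60 and −4.65 ± 0.60 (adjusted p = 2.98e-05 and 3.21e-05) correspond to at least 5.33-fold and 3.92-fold.

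Olfr884 (MOR162), at −5.68 and −4.50, and Olfr829 (MOR147), at −5.15 and −5.56, completed the 5 largest negative differences. Both lay below the negative control level in the titled GFP− fraction, so the folds are at least 2.06 and 1.13 for Olfr884 and at least 1.78 and 1.75 for Olfr829. Olfr857 of MOR146 followed at −4.46 and −3.73, and Olfr18 of MOR145, which ends the first cluster, at −3.94 and −3.40. Olfr18 lay below the negative control level in all 4 groups, as did Olfr857 with odor.

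Olfr969 of MOR171 differed less evenly. Its vehicle arrays read 8.99, 7.02, 5.05 and 7.34 in titled GFP− and 10.43, 11.19, 11.05 and 12.63 in titled GFP+. With odor the values were 9.04, 6.42, 4.21 and 8.52 against 9.07, 11.16, 11.53 and 12.13, so the fractions of odor replicate 1 were nearly equal. The differences were −4.22 ± 0.98 and −3.93 ± 0.98 (adjusted p = 0.00572 and 0.00874). The odor difference did not pass without odor replicate 2 (−3.66, adjusted p = 0.0519) or without odor replicate 3 (−2.80, adjusted p = 0.0654). Olfr957, another MOR171 receptor, was at −3.80 ± 0.52 and −3.50 ± 0.52 (adjusted p = 5.48e-05 and 1.35e-04).

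Among receptors highest in the titled GFP− fraction, Olfr981 of MOR223 had the largest differences. It read 9.58, 11.65, 9.99 and 11.31 in the titled GFP− arrays of vehicle pools and 5.07, 7.39, 5.45 and 5.83 in titled GFP+. The odor arrays read 8.85, 10.82, 9.95 and 10.57 against 5.22, 5.74, 5.84 and 5.99, without overlap. The differences were 4.70 ± 0.53 and 4.35 ± 0.53 (adjusted p = 6.72e-06 and 1.64e-05), and at least 2.26-fold with vehicle.

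Olfr849, the 1 member of MOR151, had closely similar replicates and the smallest p of the 127 receptors in both sets of pools. It read 11.89, 11.41, 11.59 and 11.62 in titled GFP− and 7.69, 7.50, 7.66 and 7.88 in titled GFP+ arrays of vehicle pools. With odor it read 11.76, 11.54, 11.89 and 11.59 against 6.99, 8.34, 7.23 and 7.22. All 8 titled GFP− arrays thus lay within 0.5 log2 units of each other. The differences were 3.95 ± 0.23 and 4.25 ± 0.23 (adjusted p = 3.54e-09 and 1.36e-09), at least 4.50-fold and 2.38-fold.

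Olfr854 (MOR147) differed by 3.49 and 3.91, Olfr970 (MOR171) by 3.31 and 3.50, and Olfr860 (MOR146) by 3.30 and 4.19. Olfr919 (MOR171) differed by 3.24 and 3.18, Olfr887 (MOR162) by 2.98 and 3.32, Olfr905 (MOR167) by 2.74 and 3.08 and Olfr912 (MOR165) by 2.47 and 3.11. All of these passed in both sets of pools. The vehicle bounds were low, at least 1.59-fold for Olfr854, 1.35-fold for Olfr970, 1.46-fold for Olfr860, 1.25-fold for Olfr919 and 1.00-fold for Olfr905. Olfr887 and Olfr912 lay below the negative control level in every group.

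**Figure D2:**
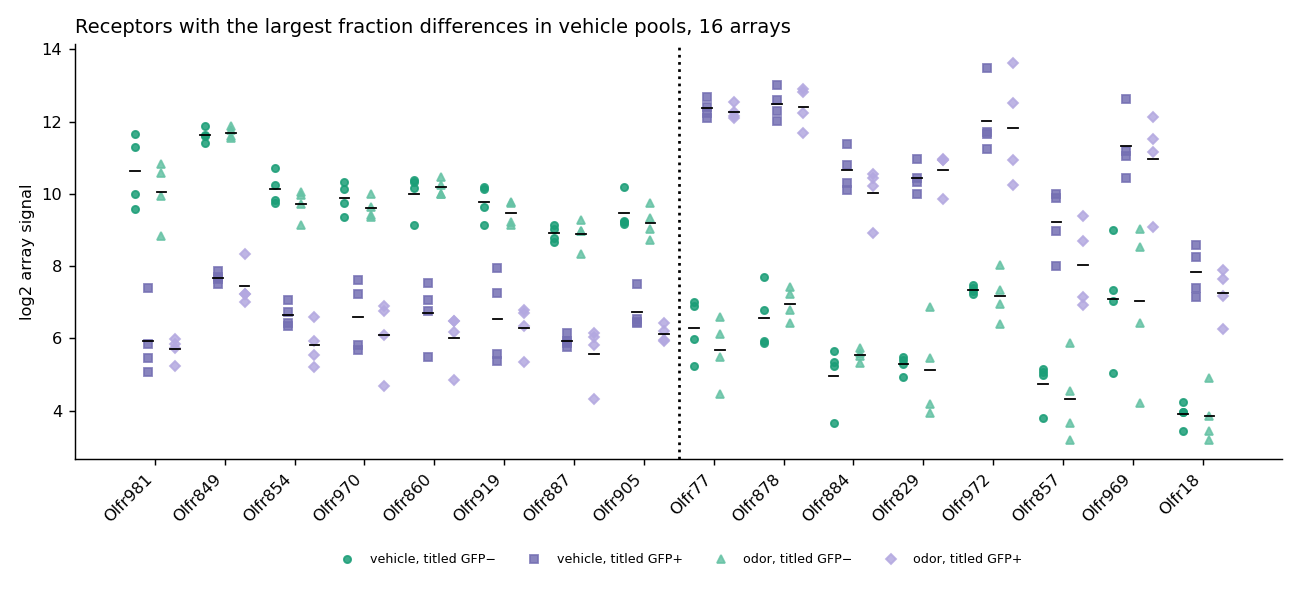
Log2 array signal of the 8 receptors with the largest positive (left of the dotted line) and the 8 with the largest negative vehicle fraction difference, each symbol 1 array and each bar the mean of 4. Vehicle and odor arrays of a fraction lie at like heights, and the groups of Olfr77 and Olfr878 lie far apart. Those of Olfr969 are more spread, and in odor replicate 1 its fractions are nearly equal (9.04 and 9.07).

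Of the 71 vehicle calls, 16 were above the negative control level in both fractions on at least 1 array each, 32 only in the brighter one and 23 in neither. The odor counts were 11, 29 and 36. By the GC-graded level they were 60, 11 and 0 with vehicle and 68, 7 and 1 with odor. The differences of dim receptors are therefore bounds or differences of weak signals under the stricter level.

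The receptor signal is read from probes on each gene, so the mean signals of different receptors cannot be set against each other as amounts of RNA. The receptors with the highest means over all 16 arrays were Olfr24, the first gene of the first cluster, Olfr893 and Olfr968. Olfr24 read 12.76 to 13.82 and 12.89 to 13.54 in the vehicle and 12.92 to 14.12 and 12.60 to 13.33 in the odor fractions (titled GFP− first), which overlap, and did not pass (0.07 ± 0.26, adjusted p = 0.877, and 0.64 ± 0.26, adjusted p = 0.0856). Olfr893 was higher in titled GFP− by 1.97 ± 0.45 and 2.02 ± 0.45 (adjusted p = 0.00557 and 0.00434). Olfr968 was higher by 1.45 ± 0.39 and 1.33 ± 0.39 (adjusted p = 0.0149 and 0.0217), a call lost without vehicle replicate 2 (adjusted p = 0.0599) or 3 (adjusted p = 0.0794) and, with odor, without odor replicate 2, 3 or 4 (adjusted p = 0.0574, 0.09 and 0.0719). The lowest means belonged to Olfr891, Olfr862 and Olfr936, which passed in neither set. At the ends of the second cluster, Olfr874 differed by 0.24 ± 0.76 and 2.05 ± 0.76 without passing (adjusted p = 0.858 and 0.0655), and passed with odor under the replicate block (adjusted p = 0.0283). Olfr986 was at −1.46 ± 0.44 with vehicle (adjusted p = 0.0311) and −1.26 ± 0.44 with odor (adjusted p = 0.0509, and 0.0253 under the replicate block). Its vehicle call was lost without vehicle replicate 1, 2 or 4 or odor replicate 2 (adjusted p = 0.0697, 0.0913, 0.0611 and 0.0503).

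The region before the annotated start was read for the leading receptors, since receptor promoters are known to carry sites for EBF proteins and for homeodomain proteins such as LHX2 and EMX2, which act in receptor gene choice. RefSeq windows of GRCm38.p6 were at hand for 106 of the 127 genes (107 windows). In 67 windows the annotated start is the start codon itself, so the sequence before it need not be a promoter. Shown are the 250 bases before the start of 4 leading receptors whose annotated start is not the start codon. Olfr77 (chr9:19916979-19917228, plus strand) and Olfr878 (chr9:37918298-37918547, plus strand) had the most and next most negative vehicle differences. Olfr860 (chr9:19849748-19849997, minus strand) and Olfr912 (chr9:38579994-38580243, plus strand) are a pair from those higher in titled GFP−. Capitals mark matches to TAATTA or to TAATTG or its reverse complement CAATTA.
Olfr77: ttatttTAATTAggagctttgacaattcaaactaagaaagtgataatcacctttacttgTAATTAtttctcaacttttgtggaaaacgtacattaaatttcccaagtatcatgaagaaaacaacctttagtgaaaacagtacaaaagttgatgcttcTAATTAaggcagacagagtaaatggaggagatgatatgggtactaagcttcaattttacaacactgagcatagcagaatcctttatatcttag
Olfr878: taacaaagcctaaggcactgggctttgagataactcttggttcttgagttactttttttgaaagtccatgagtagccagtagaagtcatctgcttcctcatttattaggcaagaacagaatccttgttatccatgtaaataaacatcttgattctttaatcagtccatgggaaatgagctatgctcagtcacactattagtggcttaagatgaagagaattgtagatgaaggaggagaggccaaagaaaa
Olfr860: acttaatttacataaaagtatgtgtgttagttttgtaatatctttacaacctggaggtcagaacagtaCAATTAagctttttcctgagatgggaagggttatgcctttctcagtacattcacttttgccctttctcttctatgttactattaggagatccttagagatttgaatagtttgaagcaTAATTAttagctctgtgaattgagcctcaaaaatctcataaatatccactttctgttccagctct
Olfr912: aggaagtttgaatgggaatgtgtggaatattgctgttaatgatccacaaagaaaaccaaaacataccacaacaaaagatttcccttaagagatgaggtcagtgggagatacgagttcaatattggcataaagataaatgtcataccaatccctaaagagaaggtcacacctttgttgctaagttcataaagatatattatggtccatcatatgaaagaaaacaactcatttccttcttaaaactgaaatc

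Olfr77 held 3 matches to TAATTA, which start 244, 191 and 93 bases before the annotated start, and Olfr860 a CAATTA at 182 and a TAATTA at 65 bases. Olfr878 and Olfr912 held none of these letters in the window. Over both strands, TAATTA stood in 25.2% of the 107 windows, against 17% of 818 windows of other receptors and 4.84% of all 32851 windows. TAATTG or CAATTA stood in 19.6%, against 23.3% and 7.17%. CCCNNGGG, the core of the EBF site, stood in 1.87%, against 2.69% and 11.8%. Among 41 windows of receptors higher in titled GFP− in both sets of pools, 17.1% held TAATTA, 24.4% held TAATTG or CAATTA and 4.88% held CCCNNGGG. Among 17 windows of those lower in both, the shares were 29.4%, 23.5% and 0%. These are counts of letters, with no test. As 67 of the 107 windows begin at the start codon, the shares are not shares of promoters. Such windows were not counted in the other sets, and base composition was not compared.

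Receptor families differed in how evenly their members moved. The grouping by MOR family was made after values had been seen and carries no test of its own. Close relatives can share probe sequence, and probe sequences were not analysed here. In MOR223, all 5 members (Olfr978 to Olfr982) were higher in titled GFP− in both sets of pools, with medians of 1.78 and 1.62. In MOR165, 5 of 7 were higher and 0 lower in both sets (medians 1.99 and 2.23), among them Olfr914 at 2.39 and 2.47. In MOR224, 6 of 9 were higher and 0 lower in both sets (1.24 and 2.17), among them Olfr148 at 2.34 and 2.57. Without vehicle replicate 1 or without vehicle replicate 2, 3 members of MOR224 passed with vehicle. MOR162 held 6 higher and 1 lower of 10 (1.21 and 1.54), the lower one being Olfr884, and MOR170 held 5 higher and 1 lower of 9 (0.68 and 0.65), the lower one being Olfr250 at −3.76 and −2.81.

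MOR171, the most numerous family with 34 members, was split. With vehicle 8 members were higher and 8 lower, and with odor 12 and 7, with medians of 0.70 and 1.13. Its members ranged from −4.66 (Olfr972) to 3.31 (Olfr970) with vehicle, so relatives of one family lay near both ends of the whole range. After centring the arrays on the median of all tested features, 19 were higher and 8 lower with vehicle. MOR145 leaned the other way, with 3 of 6 lower and 0 higher in both sets (medians −1.03 and −0.90). With arrays centred on all tested features instead, vehicle pools gave 2 higher and 3 lower. The count of 3 rested on single pools. With vehicle 1 member passed without vehicle replicate 1, 2 or 3 or odor replicate 2. With odor 1 passed without vehicle replicate 2 or odor replicate 2 or 3. In MOR161, 1 of 6 was higher and 1 lower with vehicle and 2 each with odor, and in MOR146, 1 was higher and 2 lower of 5 with vehicle and 2 higher and 1 lower with odor. The 4 odor calls of MOR161 fell to 2 without vehicle replicate 2 or 3 or without odor replicate 2, 3 or 4.

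**Figure D3:**
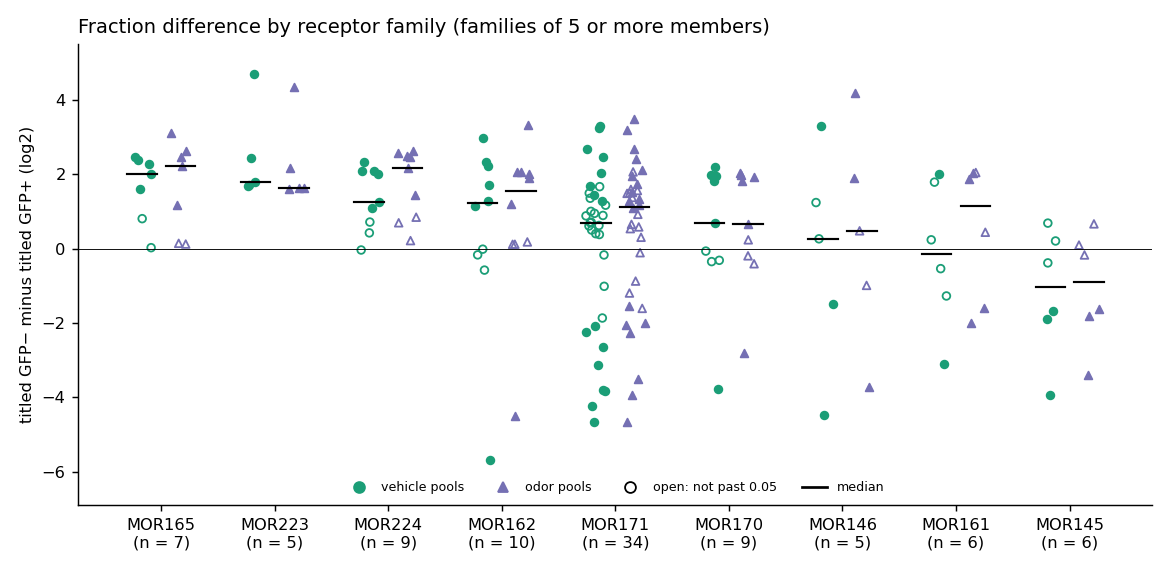
Fraction difference (log2) of the members of each family with 5 or more members, in vehicle pools (circles) and odor pools (triangles); filled symbols passed 0.05 after adjustment and bars are medians. The 5 MOR223 members all lie above 0, and the 34 MOR171 members lie on both sides.

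Along the chromosome, the clusters differed in balance. In the first cluster 10 of 35 receptors were higher and 10 lower in titled GFP− with vehicle (median 0.02), and 12 and 9 with odor (0.10). In the second cluster 38 of 92 were higher and 13 lower with vehicle (median 0.84), and 43 and 12 with odor (1.25). With vehicle 28.6% were higher and 28.6% lower in the first cluster, and 41.3% and 14.1% in the second. Other receptors gave 32.7% and 20.9%, and all features 7.05% and 9.82%. With odor the shares were 34.3% and 25.7%, then 46.7% and 13%, against 36.8% and 19.2% of other receptors and 12.2% and 9.98% of all features. The difference between clusters was not tested.

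Of 125 neighbouring pairs within a cluster, 71 had the same sign with vehicle, where 80 of the 127 receptors were positive. What share an arbitrary order would give was not tested. In 38 pairs both members passed, 30 in the same direction and 8 in opposite directions. Olfr968, Olfr969 and Olfr970 are 3 consecutive MOR171 genes at 1.45, −4.22 and 3.31, and their neighbours Olfr971 and Olfr972, also MOR171, stood at 1.70 and −4.66. Olfr250 and Olfr251 of MOR170 stood at −3.76 and 1.81, and Olfr859 and Olfr860 of MOR146 at −1.48 and 3.30. The others were Olfr828 with Olfr829, Olfr145 with Olfr878 and Olfr957 with Olfr958. Some of these calls were lost without 1 pool: Olfr859 without vehicle replicate 1, 2 or 4 (adjusted p = 0.0549, 0.0543 and 0.0549), Olfr958 without vehicle replicate 2 (0.0803) and Olfr971 without vehicle replicate 3 (0.0609).

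The longest run of neighbours that passed the same way in both sets of pools had 7 genes, Olfr976 to Olfr983, with vehicle differences of 1.08, 2.43, 1.78, 1.68, 4.70, 1.70 and 1.27 and odor differences of 1.45, 1.60, 1.62, 2.17, 4.35, 1.62 and 1.19. It takes in the whole of MOR223 between Olfr976 of MOR224 and Olfr983 of MOR162. Olfr976 did not pass with vehicle without vehicle replicate 1 (adjusted p = 0.087), nor Olfr978 with odor without odor replicate 2 (adjusted p = 0.0663). Olfr983 passed in neither set after centring on the receptor median (adjusted p = 0.0715 and 0.184). A run of 4 MOR162 genes from Olfr887 to Olfr890 was higher, at 2.98, 2.22, 1.16 and 1.70 with vehicle and 3.32, 1.90, 2.00 and 2.06 with odor. Of these, Olfr889 was not called with vehicle without vehicle replicate 1 (adjusted p = 0.0717) and Olfr890 without vehicle replicate 1 or 2 (0.0626 and 0.0628). A run of 4 genes from Olfr868 to Olfr871 (MOR145 and MOR141) was lower, at −1.89, −1.67, −2.22 and −0.84 with vehicle and −1.80, −1.62, −1.82 and −1.28 with odor. Its calls other than Olfr870 were marginal (vehicle adjusted p = 0.0482 for Olfr868, 0.0395 for Olfr869 and 0.0406 for Olfr871), and each of these 3 was lost without vehicle replicate 1, 2 or 3. They depended on scaling too. Quantile normalization of the arrays ended the vehicle calls of Olfr869 and Olfr871 (limma, adjusted p = 0.066 and 0.0769) and the odor call of Olfr869 (0.0621). Centring on all tested features ended the vehicle call of Olfr871 (0.132), which passed in 6 of 14 alternatives. With odor, Olfr868 and Olfr869 were both lost without vehicle replicate 2 or odor replicate 2 or 3. The odor call of Olfr868 was also lost without vehicle replicate 1 or 3 or odor replicate 1 (limma, adjusted p = 0.0578, 0.0566 and 0.221).

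**Figure D4:**
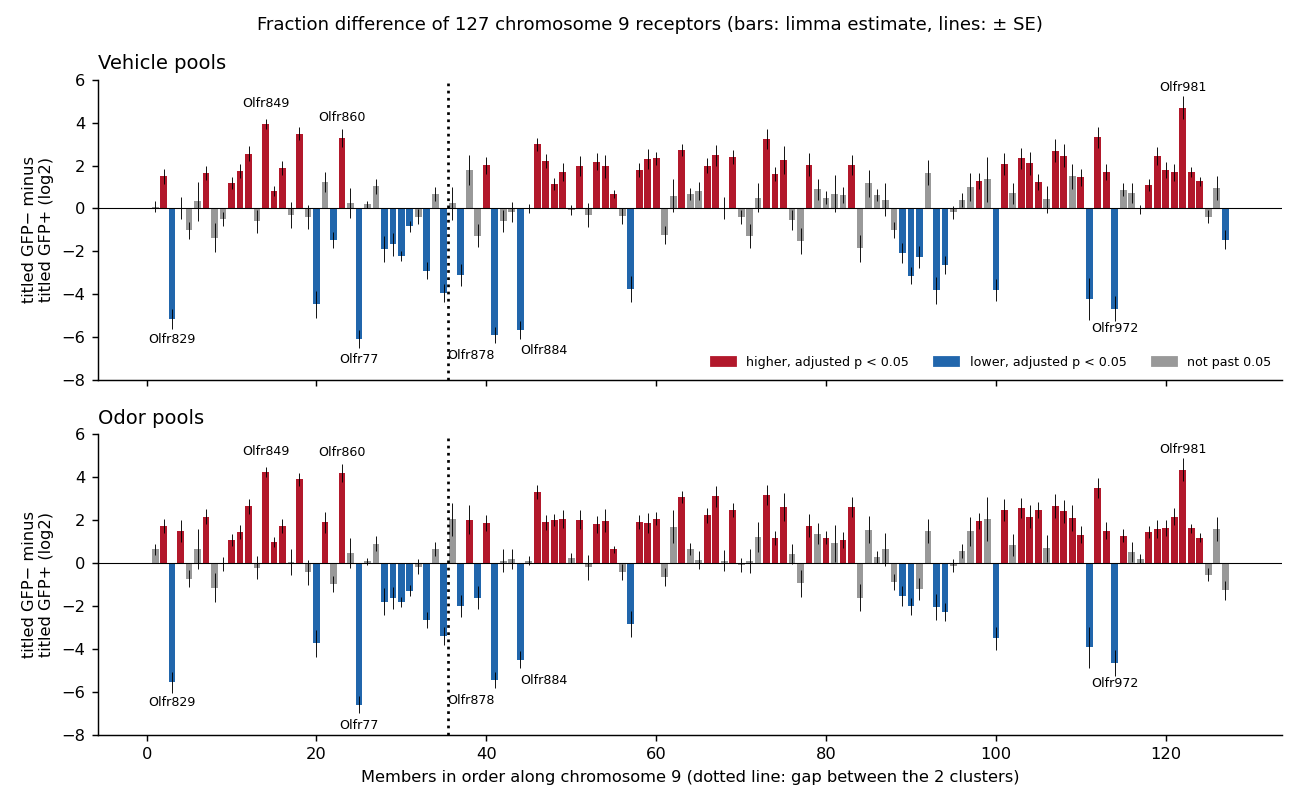
Fraction difference (log2, bars, with ± SE lines) of the 127 receptors in their order along chromosome 9, in vehicle pools (top) and odor pools (bottom), coloured where past 0.05 after adjustment. Both panels have the same shape, with blue bars among the first 35 genes and in scattered places of the second cluster.

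Other cells in the sort moved with the fractions. All 7 neutrophil markers were lower in titled GFP− in both treatments, and their summed signal (log2) was 8.10 to 8.70 and 8.18 to 9.60 there against 18.29 to 19.52 and 18.25 to 19.26 in titled GFP+ (vehicle first). In titled GFP−, 3 of the 7 never exceeded the GC-graded level. All 5 other leukocyte markers measured were lower too, as were 6 of 7 immature neuron markers, 3 of 3 cycling markers, and 4 (vehicle) or 5 (odor) of 5 sustentacular cell markers. Mature neuron markers were higher in titled GFP− for 3 of 13 with vehicle and 5 of 13 with odor, with 0 lower, and their summed signal ranged from 20.99 to 21.29. All 5 activity-dependent neuron genes were higher, with medians of 1.23 and 1.31. Of 11 genes of receptor choice 0 were higher and 1, Lbr, was lower (−1.67 and −1.77). The part of these cell types in the receptor differences was not tested.

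Receptors are expressed in zones of the epithelium, so zone markers were read beside them. Nqo1 and Acsm4, markers of the dorsal zone, differed by 0.03 and −0.06 with vehicle and 0.47 and 0.29 with odor, none passing (adjusted p from 0.366 to 0.968). Ncam2 and Nrp2, markers of the ventral zones, differed by 0.44 and 0.33 with vehicle and 0.17 and 0.16 with odor, again without passing (adjusted p from 0.0553 to 0.471).

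The comparison the assay is built on asks whether the odorants moved a receptor between fractions, as the odor minus the vehicle fraction difference. None of the 127 receptors passed in that interaction, and 0 of 19572 features did (0%). At an unadjusted p under 0.05 there were 2 receptors (1.57%), against 3.78% of all features. With the replicate number as a block there were 6 (4.72%), against 5.5% of all features, and again 0 calls. Leaving out 1 pool gave 1 to 5. The pair in the unblocked fit were Olfr963 of MOR224 and Olfr889 of MOR162. Olfr963 read 9.65, 8.98, 8.88 and 9.20 against 7.51, 7.87, 7.67 and 8.70 in vehicle pools and 10.10, 9.77, 9.78 and 9.02 against 6.26, 6.80, 7.25 and 8.43 in odor pools. Its fractions did not overlap in either treatment, and the gap was wider with odor, by 1.24 ± 0.54 (limma, unadjusted p = 0.034, adjusted p = 1). Olfr889 had an interaction of 0.85 ± 0.39 (unadjusted p = 0.0454) and Olfr830 one of 1.48 ± 0.71 (unadjusted p = 0.0551), both with an adjusted p of 1.

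The interaction was positive for 92 of 127 receptors, with a median of 0.25, against 62.6% positive and a median of 0.14 for other receptors and 54.9% and 0.03 for all features. Centring the arrays on the receptor median brought the members' median to 0.05. Among the leading receptors, Olfr77 had an interaction of −0.51 ± 0.57, Olfr849 of 0.30 ± 0.32 and Olfr981 of −0.35 ± 0.75, each less than 1 SE from 0. Olfr884 was at 1.18 ± 0.58 (unadjusted p = 0.0593, adjusted p = 1).

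Within the titled GFP− fraction, odor against vehicle gave 0 calls among the receptors and 0 among all features (0%). At an unadjusted p under 0.05 there were 0 receptors, against 4.11% of all features. With the replicate block there were 2 receptors (1.57%), against 5.73%, with 0 receptors and 1 feature called after adjustment. Leaving out 1 pool gave 0 to 3 receptors, and the median difference was −0.08, against −0.08 for other receptors. The 3 with the smallest p were Olfr936 at −0.57 ± 0.28 (unadjusted p = 0.0565), Olfr850 at 0.41 ± 0.22 (unadjusted p = 0.0822) and Olfr978 at −0.73 ± 0.42 (unadjusted p = 0.0989), each with adjusted p = 0.999 in limma.

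Within the titled GFP+ fraction there were again 0 calls among receptors and 0 among all features (0%). At an unadjusted p under 0.05 there were 9 receptors (7.09%), all lower with odor, against 10.3% of all features. With the replicate block there were 18 (14.2%), against 13.2% of all features. No receptor was then called (smallest adjusted p = 0.122, limma), and 1 feature was. Leaving out 1 pool gave 5 to 12. Olfr889 led with vehicle values of 8.09, 8.30, 7.99 and 8.49 and odor values of 7.04, 7.35, 7.60 and 7.72, which do not overlap. Its difference was −0.79 ± 0.28 (limma, unadjusted p = 0.0111, adjusted p = 0.38). Olfr854 followed at −0.83 ± 0.29 (unadjusted p = 0.0117, adjusted p = 0.383) and Olfr870 at −0.65 ± 0.24 (unadjusted p = 0.0155, adjusted p = 0.386).

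In that fraction 19 of 127 receptors had a positive difference, and the median was −0.28, against −0.21 for other receptors and −0.03 for all features. The summed receptor signal of the 127 (log2) was 15.95 to 16.97 on odor arrays titled GFP+ and 16.49 to 17.16 on vehicle arrays, which overlap, with odor replicate 1 the lowest. The median was −0.07 without odor replicate 1, −0.16 without vehicle replicate 4 and −0.47 without odor replicate 4. Centred on receptors, it was −0.02. The negative control level moved the other way, 10.28 to 10.88 on odor against 9.14 to 10.08 on vehicle arrays, and its part in the shift was not tested. In titled GFP− the summed signal was 16.85 to 17.50 with odor and 16.94 to 17.45 with vehicle. The odor comparisons and the interaction share arrays with the fraction comparisons and are no independent view of the same receptors.

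**Figure D5:**
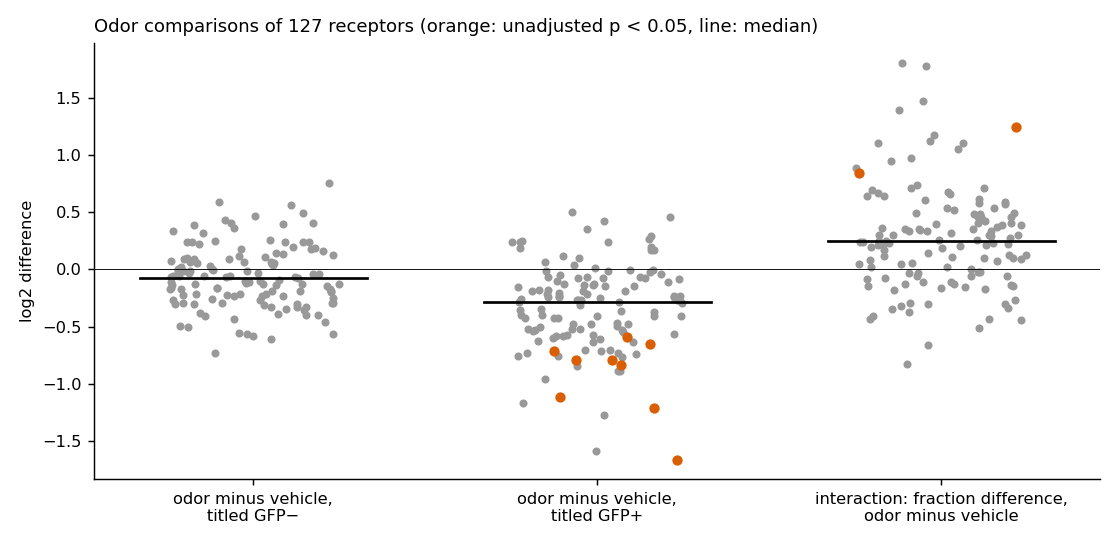
Log2 difference of each of the 127 receptors for odor minus vehicle in titled GFP− cells, the same in titled GFP+ cells, and the interaction; orange points have an unadjusted p under 0.05 and bars are medians of −0.08, −0.28 and 0.25. No receptor passed after adjustment in any of the 3.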

How the data were processed

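Gene expression was measured on 16 Clariom S arrays, 1 value per transcript cluster. The authors deposited log2 signals, as judged from values of 1.78 to 19.3, made with Affymetrix Expression Console, per the submitters' processing notes. Their normalization was not stated in any source at hand, and none was added. Of 28846 entries, 19572 with a gene symbol were tested, without a filter on low values. Samples were grouped by title, which contradicts the cell type entries. A replicate is a pool of 3 mice, sorted into both fractions.

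The 4 group means were modelled in limma 3.58.1 (R 4.3.3), with two-sided moderated tests of 5 comparisons and Benjamini-Hochberg adjustment over 19572 features at 0.05. SE values come from that model. The number of arrays limits the precision. The fit was tested on simulated data. The members, marker lists and alternatives were chosen with earlier results of these data known. Named were the 8 members with the largest difference at each end of both fraction comparisons, the 3 with the smallest p in the other comparisons, the 3 highest and 3 lowest means, and the cluster ends. Protein identity between members, planned as a further choice, was not analysed here. Genes discussed as neighbours or family members were added after their values were seen.

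Same-numbered odor and vehicle arrays deviated together from their group means (correlation 0.147 to 0.547), and so did the fractions of a pool (0.0957 to 0.337). The replicate numbers were therefore taken to pair the samples, and a fit with the pool as a random block (for odor comparisons, the number as a fixed block) was run beside the unblocked one. Alternatives also covered 3 other scalings, a dim filter, the variance model, fits on the compared arrays alone, and leaving out each of 8 pools in turn. Sequences are from RefSeq, build GRCm38.p6. The build behind the array values is not given in the sources used here.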

Additional observations from a re-analysis of the deposited data

Results flagged for a closer look

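Among the members named by rule, 128 sets of 4 replicate arrays were examined for an array far from the other 3 (Dixon's ratio above its 95% critical value), and 7 stood out. Chance flags about 1 in 20 such sets. Olfr829 read 9.85 on odor titled GFP+ replicate 1, against 10.93 to 10.95 on the others. Olfr857 read 3.78 on vehicle titled GFP− replicate 3, against 4.998 to 5.142. Olfr862 read 6.87 on odor titled GFP− replicate 3, against 3.09 to 3.45, and Olfr936 read 4.43 there, against 3.61 to 3.74. Olfr905 was high in both fractions of vehicle replicate 4, at 10.20 against 9.16 to 9.25 in titled GFP− and 7.49 against 6.42 to 6.54 in titled GFP+. Olfr978 read 8.19 on vehicle titled GFP− replicate 1, against 9.56 to 9.80.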

How the results depend on the processing

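The members' fraction counts moved by under 1.5 times in every scaling, variance and leave-out alternative, and no call changed sign in any alternative. The counts over all features moved far more with scaling, as given below. Of 71 vehicle and 76 odor calls, 49 and 53 passed in every alternative that tested them. Leaving out 1 pool gave 56 to 76 calls with vehicle and 64 to 77 with odor, and 0 to 0 in the interaction and both odor comparisons. Only 6767 features lay above the negative control level on at least 4 arrays, among them 56 members. Of these, 33 passed with vehicle (24 higher, 9 lower) and 35 with odor (26 and 9). In each comparison 34 of the main calls were still tested, of which 33 passed again with vehicle and 34 with odor. A group has 4 arrays, so a receptor can be kept through its brighter fraction alone. The share of all 6767 features that passed is not given here. The count of members above background on at least 1 array, 77, was 124 by the median of the negative controls and 122 by that of the GC-graded probe sets.

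With the replicate block, 79 members passed with vehicle, 84 with odor and 0 in the interaction and the odor comparisons, within 1.5 times of the unblocked counts. Calls over all features rose too, from 3302 to 4176 with vehicle and from 4338 to 5453 with odor. Among members the block ended 0 calls and added 8 in each fraction comparison, among them named Olfr874 and Olfr986 with odor (adjusted p = 0.0283 and 0.0253). Counts at an unadjusted p under 0.05 rose from 2 to 6 in the interaction, 0 to 2 in titled GFP− and 9 to 18 in titled GFP+. Scaling moved the median of all features in the fraction comparisons from 0.13 and 0.14 to 0.54 and 0.44 (centred on all tested features) or −0.14 and −0.33 (centred on receptors), and differences are relative to that shift. The calls were then 66 higher and 22 lower with vehicle and 67 and 21 with odor, or 42 and 28, and 45 and 27. Small fraction differences that had not passed turned in sign. Centred on receptors these were Olfr830 (−0.25), Olfr24 (−0.20), Olfr862 (−0.0044) and Olfr874 (−0.031) with vehicle and Olfr936 (−0.16) and Olfr891 (−0.23) with odor, and centred on all features Olfr891 with vehicle (0.34). Leaving out 1 pool gave −0.41 to 0.50 for Olfr830, −0.17 to 0.23 for Olfr24, −0.0011 to 0.58 for Olfr862, −0.021 to 0.46 for Olfr874 and −0.22 to 0.21 for Olfr891 with vehicle, and −0.031 to 0.77 for Olfr862 with odor. The cause was not tested. The number of arrays and the high negative control level limit what can be said of dim receptors.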
